A study of Mus musculus with 12 samples.

Results

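The 9 genes described here encode proteins that decide how long inflammatory mRNAs last: the tristetraprolin family Zfp36, Zfp36l1 and Zfp36l2, the endonuclease gene Zc3h12a (Regnase-1), the roquin genes Rc3h1 and Rc3h2, the AU-rich element binders Khsrp (KSRP) and Hnrnpd (AUF1), and Elavl1 (HuR). They were taken by name and by their known function, 8 as destabilising factors and Elavl1 as the stabilising one, from 27179 Entrez gene IDs in the count tables. The cells were NIH3T3, a mouse fibroblast line that arose from embryos and divides without limit, and in all samples they lacked endogenous RelA (RelA-/-) and carried a RelA-DsRed fusion. Per the labels, 12 samples in 4 groups of 3 spent 2 h on a microfluidic chip with 0.2 ng/mL of the cytokine IL-1β, with bacterial LPS at 100 ng/mL, with 0.2 ng/mL of PAM (not spelled out in the labels) or with media alone. The files of the other 9 samples repeat that of IL-1 replicate 3 exactly, so only the 3 IL-1 libraries held counts of their own. What follows are therefore levels in IL-1-treated cells, and no effect of the stimulus on any gene could be measured.

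Many cytokine, chemokine and growth factor mRNAs carry AU-rich elements, overlapping copies of the pentamer ATTTA (written as DNA), in their 3′ untranslated region (3′UTR). Tristetraprolin and its relatives bind such elements and recruit the CCR4-NOT complex, which shortens the poly(A) tail, whereas HuR binds the same kind of element and protects the mRNA. Regnase-1 and the roquins instead recognize short stem-loops with a 3-base loop of pyrimidine, purine and pyrimidine. Regnase-1 cuts the mRNA there, and roquins recruit deadenylases. Zfp36 and Zc3h12a are known as genes that inflammatory signals induce, and their products limit the response that induced them.

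The elements that these proteins read also occur in their own mRNAs. All 9 decay factor mRNAs held at least 1 ATTTA in the 3′UTR, against 62.2% of all 19365 genes with a 3′UTR. The pentamer is thus common, and this share is not matched for length. The sites are printed from the annotated GENCODE M21 transcripts (GRCm38) because they show both kinds of element in factors and in targets. For each of the 9 mRNAs below, 5 factors and 4 targets picked with their sites known, the 30-base window of the 3′UTR with the most ATTTA pentamers is given, with the pentamers in capitals.
Zfp36, chr7:28376958-28376987, minus strand: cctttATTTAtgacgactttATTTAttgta
Zfp36l1, chr12:80108431-80108460, minus strand: cttATTTAacttatcaaaacgtATTTAttg
Zfp36l2, chr17:84184918-84184947, minus strand: gaaaaactATTTAacttATTTAttatcttg
Zc3h12a, chr4:125119046-125119075, minus strand: ttgtatctctgtcATTTAaggagacgctgc
Elavl1, chr8:4285777-4285806, minus strand: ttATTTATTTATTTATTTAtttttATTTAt
Cxcl1, chr5:90892606-90892635, plus strand: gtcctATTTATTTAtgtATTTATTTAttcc
Ptgs2, chr1:150105796-150105825, plus strand: atATTTATTTATTTAtgtgaagaATTTAat
Ier3, chr17:35822484-35822513, plus strand: ctaattaatATTTAtgtATTTAtgtatatc
Ccl2, chr11:82037205-82037234, plus strand: taatattaaacttATTTAacttattgatgt
The Elavl1 window held 5 pentamers, 4 of them overlapping in a run, against 2 in the window of each of the 3 tristetraprolin family genes. Cxcl1 and Ptgs2, whose products are a neutrophil chemoattractant and the inducible cyclooxygenase, had 4 each. The windows of Zc3h12a and of the chemoattractant Ccl2 had 1 pentamer each, as did those of Hnrnpd and Myc, which are not printed.

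The stem-loop readers were examined the same way. A stem-loop was counted where at least 5 Watson-Crick pairs enclosed a 3-base loop of pyrimidine, purine and pyrimidine. Of 13 mRNAs known to be regulated this way, Zc3h12a among them, 8 held at least 1, against 19.7% of all 19365 genes with a 3′UTR. These 13 were listed as known targets and not matched in 3′UTR length, so no conclusion is drawn from this contrast. None was found in the other 5, Il6, Il12b, Il2, Cxcl1 and Lcn2. This says only that the pattern, with its unbroken pairs, is not in the annotated 3′UTR, and other stem-loops were not searched. The longest stem of the 3′UTR is shown with its loop in capitals for 3 of the readers and for 5 targets that held one.
Zc3h12a, chr4:125118662-125118678, minus strand: atttaaaTATtttaaat
Rc3h1, chr1:160969796-160969814, plus strand: tatatataTATtatatata
Rc3h2, chr2:37373809-37373823, minus strand: aacttcTGTgaagtt
Tnf, chr17:35199585-35199599, minus strand: gttttcTGTgaaaac
Nfkbid, chr7:30428402-30428416, plus strand: gatttcTGTgaaatc
Nfkbiz, chr16:55812613-55812629, minus strand: ttgtttcTATgaaacaa
Tnfrsf4, chr4:156016541-156016555, plus strand: gtatgcTATgcatac
Icos, chr1:60998050-60998070, plus strand: gcattttttTACaaaaaatgc
The loops of Zc3h12a and Rc3h1 had the letters TAT, as in Nfkbiz and Tnfrsf4, that of Rc3h2 had TGT, as in Tnf and Nfkbid, and that of Icos had TAC. These are matches of letters and pairing, and no binding was measured.

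Library totals were 17254518, 18091073 and 18578859 counts. A gene was called detected where it had 1 CPM (count per 1000000 of its library's total) or more in every library, which 11224 genes did. All 8 fibroblast markers were detected, with a summed level of 7857 to 8213 CPM, while 2 of 5 macrophage and leukocyte, 0 of 4 epithelial and 0 of 3 endothelial markers were, with sums of at most 5.25, 0.663 and 0.753 CPM. Rela was at 35.5 ± 4.46 CPM (SD, n = 3), and its counts do not separate the fusion from the deleted allele. Separate cultures are not stated, so the spread may be technical. Counts are reads without molecular identifiers, so intervals cover counting error only.

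All 9 genes were detected, against 41.3% of all IDs. Elavl1 stood at 429 ± 11.3 CPM and the 8 destabilising factors between 3.89 and 53.3 CPM (means, n = 3). The founding member Zfp36 and the endonuclease gene Zc3h12a were the lowest. In the bulk lysate, fewer cells with a transcript and less transcript per cell cannot be told apart.

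**Figure D1:**
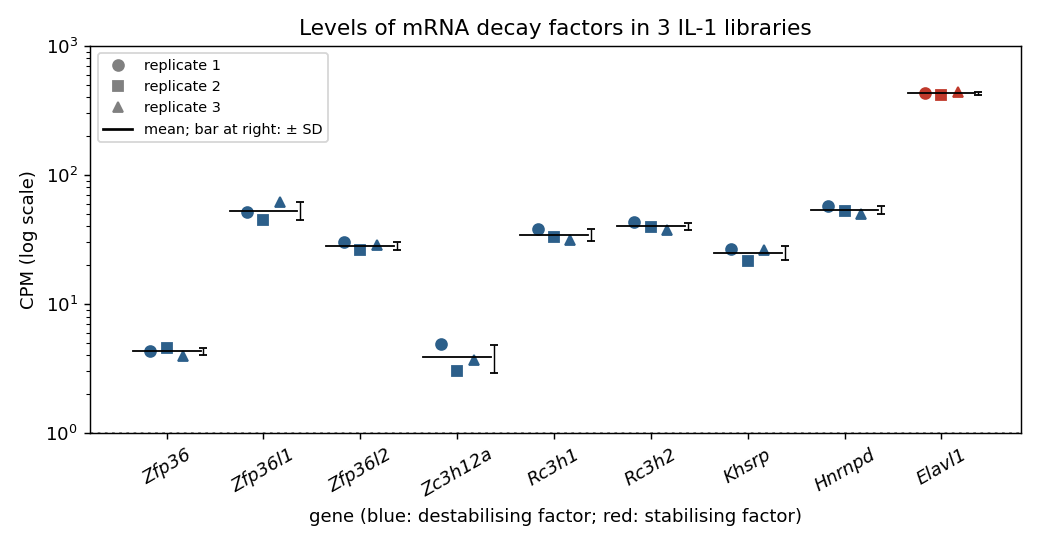
CPM of the 9 genes (log axis) in IL-1 replicates 1, 2 and 3 (symbols), with the mean as a line and the SD as a bar at the right. Elavl1 lies at 416 to 437 CPM, Zfp36 and Zc3h12a lie between 3.04 and 4.93 CPM, and the other 6 genes lie between 21.6 and 61.7 CPM.

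Of the 3 detected genes of the tristetraprolin family, the prototype was the scarcest. Zfp36 (Entrez 22695, chromosome 7, 28376784 to 28379228, GRCm38), which encodes tristetraprolin, had 75, 82 and 74 counts in replicates 1 to 3, or 4.35, 4.53 and 3.98 CPM. These counts lay within each other's exact 95% Poisson intervals, which ran from 59.0 to 94.0 counts in replicate 1. Zfp36l1 (chromosome 12, 80107760 to 80113013), which encodes the relative BRF1, had 51.6, 45.1 and 61.7 CPM. It was highest in replicate 3, 1.37-fold above replicate 2, and its coefficient of variation of 15.9% compared with 3.24% from counting alone. Zfp36l2 (chromosome 17, 84183924 to 84187947), the third family member, had 30.1, 26.1 and 28.8 CPM.

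Levels of different genes were set side by side per kb of merged exons, assuming reads from along the transcript, which counts per gene cannot show. On that scale the family summed to 26.9 ± 3.09 CPM per kb, of which Zfp36l1 gave 65.4% ± 3.05, Zfp36l2 29.97% ± 2.35 and Zfp36 4.65% ± 0.831 (SD, n = 3). The order Zfp36l1, Zfp36l2, Zfp36 was the same in all 3 libraries. Of the merged exons of Zfp36l1, 55.9% overlap Gm26669, a noncoding gene on the opposite strand, and the strand setting of the counting is not given, so reads of the 2 genes could not be told apart there. The Zfp36 model in GENCODE is 3470 bases, of which 2445 lie within the RefSeq gene, and its level is 1.24 ± 0.0806 CPM per kb over all 3470. Zfp36l3, a family member known from mouse placenta, had 1, 0 and 1 counts.

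Zc3h12a (chromosome 4, 125118414 to 125127881) had 85, 55 and 69 counts, or 4.93, 3.04 and 3.71 CPM. Replicate 1 was 1.62-fold above replicate 2, the widest ratio among the 9 genes. Its coefficient of variation was 24.5%, against 11.98% from counting and a median of 16.0% over the 910 detected genes with means of 3 to 6 CPM. Its relatives differed in level, with Zc3h12c at 9.79, 7.35 and 8.13 CPM and Zc3h12d at 4, 0 and 6 counts.

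The roquins were of similar abundance to each other. Rc3h1 (chromosome 1, 160906411 to 160974976), which encodes roquin-1, had 38.3, 33.2 and 31.2 CPM, and Rc3h2 (chromosome 2, 37368861 to 37424370), which encodes roquin-2, had 42.9, 39.6 and 37.7 CPM. Both were highest in replicate 1 and lowest in replicate 3. Which of them was higher per kb depended on the length. With merged exons the ratio of Rc3h1 to Rc3h2 was 1.48 ± 0.0606, and with the longest annotated transcript it was 0.693 ± 0.0284 (SD, n = 3). The merged exons of Rc3h2 span 19624 bases over 10 transcript models, against 8948 bases in its longest transcript.

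Of the broadly expressed AU-rich element binders, Khsrp lay below both roquins and Hnrnpd above both in CPM, and per kb of merged exons, the scale introduced above, both binders were above the roquins. Khsrp (chromosome 17, 57021049 to 57031507), whose KH-domain protein recruits decay enzymes, had 26.9, 21.6 and 26.4 CPM. Hnrnpd (chromosome 5, 99955935 to 99979130), whose protein isoforms can destabilise or stabilise an mRNA depending on the setting, had 57.3, 52.8 and 49.8 CPM. Replicate 2 was the lowest for Khsrp and replicate 3 for Hnrnpd. Counts per gene do not separate these isoforms. Of the 50-base stretches of the Hnrnpd transcript, 5.69% also occur in transcripts of other genes on either strand, most of them in the antisense gene Gm17092, against 2.14% for Khsrp and 0.00% for Rc3h1.

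Elavl1 (chromosome 8, 4284781 to 4325140), which encodes HuR, had 7489, 7531 and 8123 counts, or 434, 416 and 437 CPM. Its coefficient of variation of 2.63%, against 1.14% from counting alone, was the smallest of the 9 genes. Of all detected genes, whose median was 8.56%, 8.16% had a smaller one, but these genes were not matched in level to Elavl1. Its merged exons share 204 bases with those of Ccl25 on the opposite strand, a gene at 10.99 CPM. The neuronal relatives were near or at the floor, with 14, 21 and 13 counts of Elavl2, 3, 4 and 1 counts of Elavl3 and none of Elavl4, for which the pooled libraries allow a level of up to 0.0556 CPM.

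Set against Elavl1 within each library, all 8 destabilising factors were lower per kb in all 3 libraries. Of all 10783 detected genes with a length, 85.5% were lower than Elavl1 by the same rule, and the share of the 8 is near that background. Per kb, the factors ran from 17.7 ± 2.80 for Zfp36l1 to 1.24 ± 0.0806 for Zfp36, against 41.4 ± 1.09 CPM per kb for Elavl1 (SD, n = 3). Zfp36l1 was 2.36-fold lower than Elavl1 (log2 ratio -1.24 ± 0.19), the smallest gap per kb of merged exons. Zfp36l2 was 5.16-fold, Hnrnpd 5.72-fold and Khsrp 7.20-fold lower, with log2 ratios of -2.37, -2.52 and -2.85. Rc3h1 was 13.7-fold and Rc3h2 20.3-fold lower (log2 ratios -3.78 and -4.34). The widest gaps were those of Zc3h12a, 31.3-fold lower with a log2 ratio of -4.97 ± 0.32, and Zfp36, 33.6-fold lower with a log2 ratio of -5.07 ± 0.13. For each of these 8 ratios, the exact two-sided sign-flip permutation test over the 3 libraries gave p = 0.25, which is the smallest it can give. The p-values were not adjusted over the 8 ratios.

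**Figure D2:**
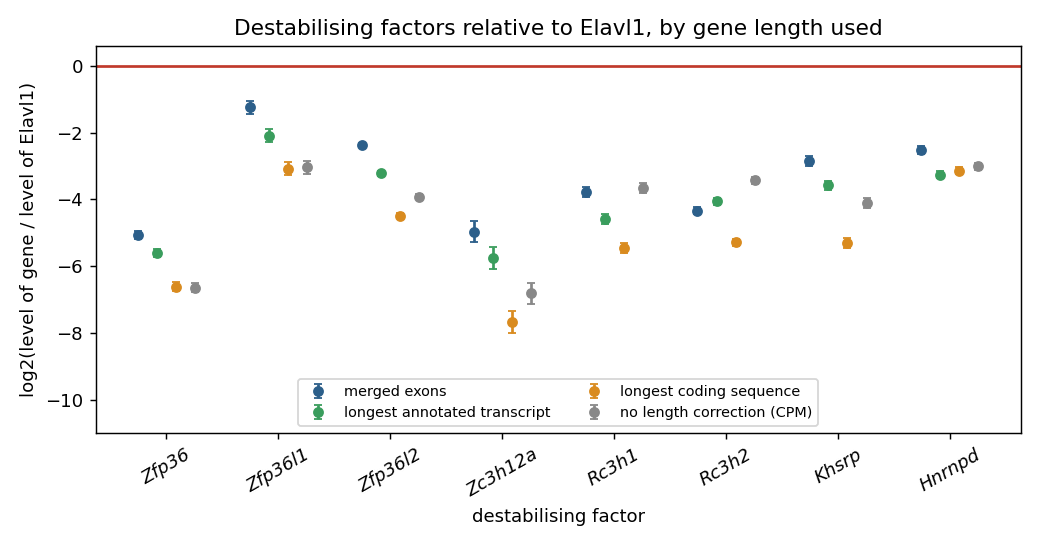
log2 ratio of each destabilising factor to Elavl1 (y axis, mean ± SD over 3 libraries) with 3 gene lengths and with CPM uncorrected for length; the line at 0 is Elavl1. All points lie below 0, from -1.24 for Zfp36l1 with merged exons to -7.68 for Zc3h12a with the coding sequence.

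In the order of levels per kb of merged exons, 2 neighbouring pairs had overlapping ranges over the libraries. Zfp36l2 at 7.39 to 8.54 CPM per kb overlapped Hnrnpd at 6.77 to 7.79, although it was above Hnrnpd within each library. Zc3h12a at 1.05 to 1.71 overlapped Zfp36 at 1.15 to 1.31, and was higher in 2 of the 3 libraries. The other 6 neighbouring pairs were apart on this scale, but not all of them kept their order with another length. The orders of the 2 overlapping pairs depended on the length: with the longest transcript Zfp36l2 was above Hnrnpd, and Zfp36 above Zc3h12a, in 2 of the 3 libraries each. With the longest coding sequence Zfp36l2 at 19.5 CPM per kb lay apart below Hnrnpd at 49.9, and without length correction it also lay below, at 28.4 against 53.3 CPM. Other orders changed too. With the longest transcript Rc3h2 at 4.48 CPM per kb lay apart above Rc3h1 at 3.11. With the longest coding sequence Zfp36l1 overlapped Hnrnpd and was above it in 1 of the 3 libraries. Rc3h2 there overlapped Khsrp and was above it in 2 of the 3. Summed per kb, the 8 destabilising factors reached 46.4 ± 3.84 CPM per kb, against 41.4 ± 1.09 for Elavl1, a ratio of 1.12 ± 0.0643 (SD, n = 3). This sum fell below Elavl1 with another length, at a ratio of 0.673 with the longest transcript and 0.367 with the longest coding sequence.

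Among detected genes, Elavl1 stood at the 86.5 percentile of level per kb, Zfp36l1 at the 71.8, Zfp36l2 at the 53.6, Hnrnpd at the 51.1 and Khsrp at the 45.7 percentile. The roquins stood at the 30.6 (Rc3h1) and 22.6 (Rc3h2) percentiles, and Zc3h12a and Zfp36 at 15.1 and 13.9. The 3 protein-coding genes nearest to Elavl1 in level over the 3 libraries were Cebpz, Bnip3l and Ccm2, at 41.6, 41.3 and 41.8 CPM per kb. The nearest to Zfp36 were Faxc, Foxj2 and Adhfe1, at 1.20, 1.20 and 1.22 CPM per kb. With 3 libraries of 1 group, this likeness is one of level.

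Between the libraries, Zc3h12a and Zfp36l1 varied most, with coefficients of variation at the 94.1 and 81.2 percentile of detected genes, and the other 7 genes lay between the 8.16 (Elavl1) and 67.3 (Khsrp) percentile. These percentiles are over genes of all levels and are not matched for level. Replicate 1 was the highest for 6 of the 9, against 45.7% of all detected genes, replicate 2 for Zfp36 alone, against 27.1%, and replicate 3 for Zfp36l1 and Elavl1, against 27.3%. Replicate 1 was the lowest for 0 of the 9, against 30.2%, replicate 2 for 5, against 41.9%, and replicate 3 for 4, against 27.9%. The GC content of the annotated transcripts was 57.1% for Zc3h12a and 54.1% for Zfp36, the lowest 2 by level, against 45.7% for Elavl1 and a median of 50.1% over detected genes. Khsrp, at 57.3%, had the highest GC content of the 9 and a middle level. The part of GC content in these levels was not tested.

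The machinery that the factors recruit was detected almost in full, and the share to set beside each list below is 41.3% of all IDs. That share is over every ID and is not matched to the lists in kind of gene. All 11 genes of the CCR4-NOT deadenylase were at 1 CPM or more in every library, with a median of 7.92 CPM per kb, against 6.91 over all detected genes. The subunit gene Cnot2 was highest at 65.5 ± 2.43, followed by the catalytic subunit gene Cnot8 at 41.7 ± 1.35 and Cnot9 at 33.9 ± 3.89 CPM per kb (SD, n = 3). All 8 genes of the PAN2-PAN3, PARN and TOB/BTG group were detected, with a median of 4.12 CPM per kb, led by the deadenylase gene Parn at 14.8 ± 0.450, Btg1 at 14.6 ± 1.42 and Tob1 at 6.20 ± 0.835. Of 15 decapping and 5′ decay genes, 14 were detected, with a median of 9.38 CPM per kb. The Lsm ring subunit genes Lsm4, Lsm2 and Lsm1 led at 245 ± 15.0, 33.0 ± 2.29 and 24.0 ± 1.59 CPM per kb, and Dcp1b had 0, 0 and 5 counts.

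The RNA exosome, which degrades RNA from the 3′ end, and its Ski helper complex had the highest median of the machinery lists, 28.1 CPM per kb over 15 of 15 genes. The subunit genes Exosc4 and Exosc3 were at 74.0 ± 2.76 and 44.3 ± 1.47 CPM per kb and the Ski subunit gene Wdr61 at 40.2 ± 3.31. Of the 12 kinases and regulators of the factors, all were detected, with a median of 13.2 CPM per kb. The adaptor genes Ywhab and Ywhaz, whose proteins hold phosphorylated tristetraprolin inactive, were at 219 ± 10.46 and 86.2 ± 2.84 CPM per kb, and the kinase gene Map2k3 at 86.1 ± 2.26. Of 21 other relatives and AU-rich or GU-rich binders, 16 were detected, with a median of 9.81 CPM per kb, led by Hnrnpab at 84.2 ± 1.12, the paralog Hnrnpdl at 38.6 ± 3.17 and the Pumilio gene Pum2 at 24.8 ± 0.888. The 9 decay factors themselves had a median of 5.78 CPM per kb.

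**Figure D3:**
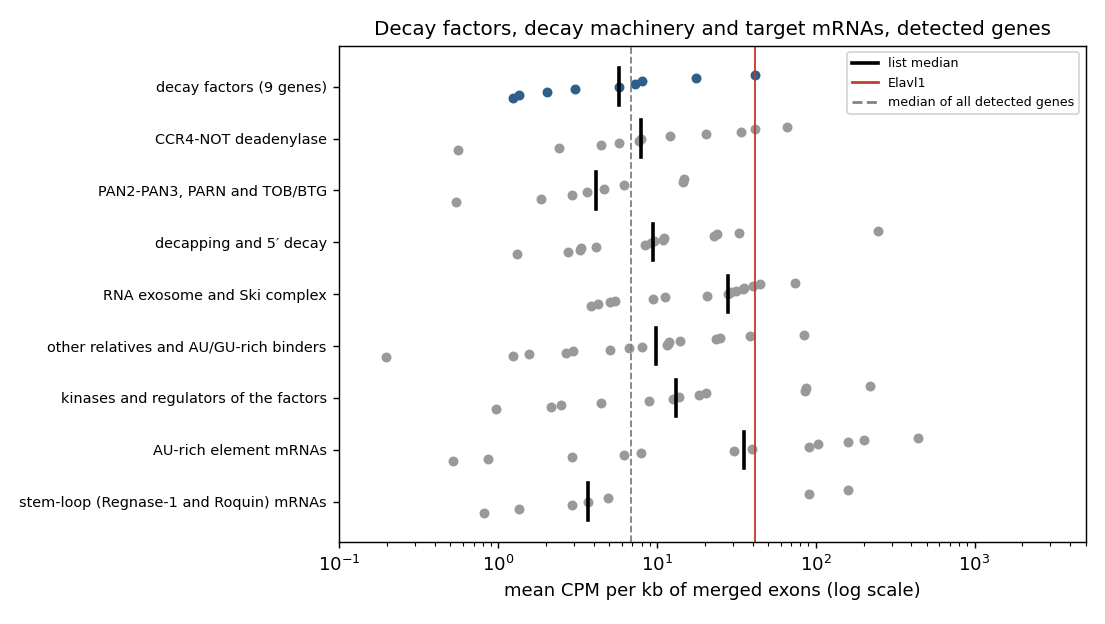
Mean CPM per kb of merged exons (log axis) of each detected gene, by list, with list medians as black bars, Elavl1 as the solid line and the median of all detected genes as the dashed line. The RNA exosome list has a median of 28.1 CPM per kb and the 9 decay factors, all detected, have 5.78. The 12 detected of 18 AU-rich element mRNAs have 35.1, a median that leaves out the undetected ones and so is not comparable over the whole list.

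Of 18 mRNAs known to carry AU-rich elements, 12 were detected, against 41.3% of all IDs. These 12 had a median of 35.1 CPM per kb and a range of 0.520 to 439. The monocyte chemoattractant Ccl2 led at 439 ± 32.2, followed by Myc at 202 ± 14.3 and the early response gene Ier3 at 159 ± 3.76 CPM per kb. Tnf, Il1b, Il10 and Ccl3 had no count, Csf2 had 2, 6 and 0 counts and Cxcl2 had 2, 1 and 0. Of 13 known stem-loop mRNAs, Zc3h12a among them, 7 were detected, against the same 41.3% of all IDs. The 7 were led by Ier3, Cxcl1 at 90.5 ± 4.46 and the IκB-like gene Nfkbiz at 4.93 ± 1.17 CPM per kb. Tnf and Nfkbid had no count, Tnfrsf4 had 7, 12 and 4 counts, Icos 4, 0 and 0, Il12b 0, 2 and 0, and Il2 0, 1 and 1.

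The heptamer TATTTAT, the preferred core of tristetraprolin, was counted in the sense strand of annotated 3′UTRs, overlapping copies included. Of the 9 decay factor mRNAs, 6 held at least 1, against 29.9% of 10649 detected genes with a 3′UTR. Zfp36, Zfp36l1 and Zfp36l2 each held 3, Rc3h2 held 3 and Rc3h1 held 2, while Zc3h12a, Khsrp and Hnrnpd held none. Elavl1 held 8, more than 99.9% of those detected genes. Its 3′UTR is long, at 4218 bases, against a median of 1099 bases, while that of Zfp36 has 774 bases. Those of Rc3h1, Rc3h2, Zfp36l1 and Zfp36l2 are also above that median, at 7181, 5331, 1835 and 1822 bases. In the longest of 3 equal classes of 3′UTR length, 1873 detected genes held a heptamer and 1677 did not, against 360 and 3195 in the shortest. The shares over all detected genes are not matched for length. All 6 genes also held the nonamer TTATTTATT, which contains the heptamer and occurs in 7.93% of detected genes, and Elavl1 held 8 copies, counted with overlap.

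**Figure D4:**
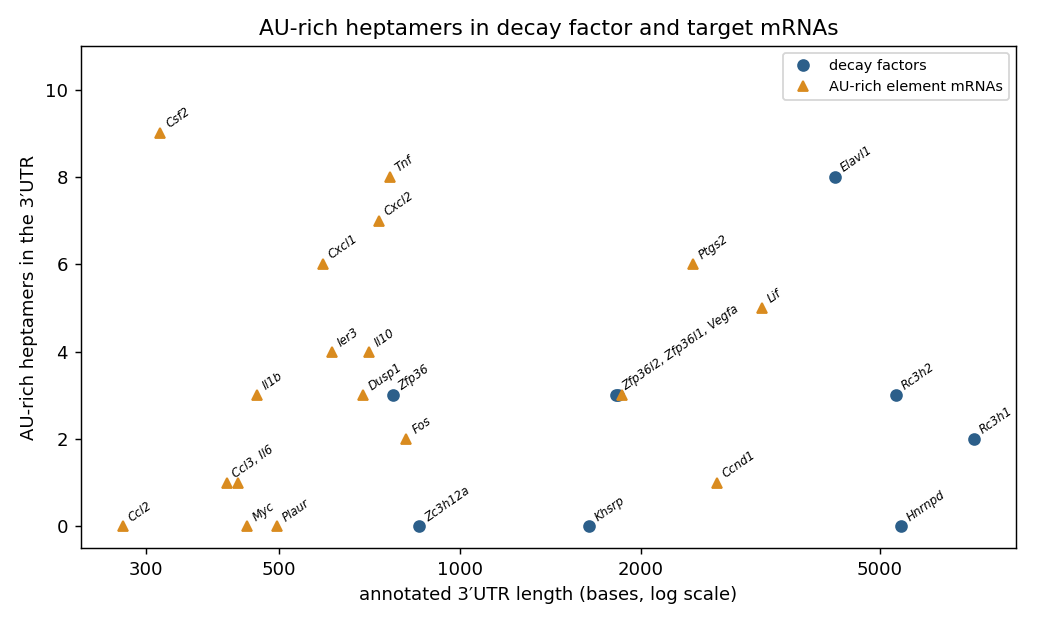
Number of AU-rich heptamers (y axis) against the length of the annotated 3′UTR in bases (log axis) for the 9 decay factors (circles) and 18 AU-rich element mRNAs (triangles); labels joined by commas belong to neighbouring points. Elavl1 holds 8 heptamers in 4218 bases and Zfp36 holds 3 in 774 bases.

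Stem-loops of the kind described above occurred in 4 of the 9 mRNAs, namely 3 in Zc3h12a, 4 in Rc3h1, 2 in Rc3h2 and 1 in Hnrnpd, against 23.8% of detected genes with at least 1. The 3′UTR of Zc3h12a has 856 bases, whereas those of Rc3h1, Rc3h2 and Hnrnpd have 7181, 5331 and 5429 bases. None was found in the mRNAs of the tristetraprolin family, Khsrp or Elavl1, which says only that this pattern is not in the annotated 3′UTR.

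Over all detected genes, those with no heptamer had a median of 8.51 CPM per kb (7463 genes), those with 1 had 5.36 (2077), those with 2 had 3.76 (716) and those with 3 or more had 3.21 (393). The median 3′UTR length moved with these classes, at 801, 1769, 2502.5 and 3265 bases. Among genes in the longest of 3 equal classes of 3′UTR length, the median was 3.73 CPM per kb with a heptamer and 5.50 without. In the shortest class it was 8.13 with and 11.99 without. Median 3′UTR lengths still differed within these classes, at 3143 bases with and 2556 without in the longest, and 434 and 288 in the shortest. Elavl1 at 41.4 and Zfp36l1 at 17.7 CPM per kb lay above the median of the class with 3 or more, as did Zfp36l2, while Zfp36 at 1.24 and Rc3h2 at 2.04 lay below it. The part of 3′UTR length and of other features in these medians was not tested.

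Promoters, from 250 bases before to 50 after the annotated start, were searched on both strands in RefSeq's GRCm38.p6 sequences, which matched 8 of the 9 genes and not Zfp36l2. The AP-1 motif TGANTCA was found once in Zfp36l1 and once in Rc3h1, against 7.93% of 27025 promoters. The NF-κB motif GGNNTTTCC (5.72% of promoters) and the cAMP response element TGACGTCA (1.88%) were in none of the 8 windows. No statement about these factors follows from windows of 300 bases.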

How the data were processed

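Levels were taken from 3 tables of raw counts per Entrez gene ID, which the authors deposited without normalization; polyA RNA of lysed cells was reverse transcribed, pre-amplified for 10 cycles and tagmented, per the labels' protocols. The submitters' processing notes name build mm10 and the tools featureCounts, STAR and CASAVA; versions, strandedness and multi-mapping rules: not given in the sources used here. The 9 copies of IL-1 replicate 3 were left out, so no group comparison or count model was run. Symbols came from RefSeq (GRCm38.p6), for 25275 of 27179 IDs. CPM used the total count of each library (17254518 to 18578859, where a count of 0 allows up to 3 counts, or 0.161 to 0.174 CPM). Lengths, GC content and 3′UTRs came from GENCODE M21, for 96.1% of detected genes; 3′UTRs are those of the longest RefSeq-linked coding transcript. No protein sequences were used. The members and lists were chosen with earlier results of these data known. Named genes were the 9 members, the 3 highest genes per kb and each undetected gene of a list, and the 3 nearest genes to Elavl1 and Zfp36 in log2(CPM per kb + 0.1); Zc3h12c, named beside Zc3h12d, and Gm26669, Gm17092 and Ccl25, named for their overlap, Ptgs2, Il6 and Lcn2, named for their 3′UTRs, and Rela, as a check of the labels, fall outside this rule and were chosen after their values were seen. The scaling factors of the alternatives (TMM and relative log expression, from edgeR 4.0.16 in R 4.3.3) were tested on simulated counts. The motif search was checked only for finding planted motifs, and its false hits were not measured. Python 3.11.15, numpy 2.4.6, pandas 2.3.3 and scipy 1.17.1 were used.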

Additional observations from a re-analysis of the deposited data

How the results depend on the processing

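No paired analysis was possible because the other 3 groups hold copies of 1 IL-1 library. With TMM or relative log expression factors, all 18 recomputed means of the 9 genes lay within 1 SD. Factors of 0.981 to 1.02 leave a mean of the 3 libraries little room to move. The numbers of genes highest in replicates 1, 2 and 3 went from 6, 1 and 2 to 5, 1 and 3 with either set, and so kept within 1.5 times. All 72 recomputed counts of detected genes, for the members and the 8 lists, did so too, with minimums of 0.5 and 2 CPM, of 1 count, other factors, or 1 library left out. The number of destabilising factors above Elavl1 was 0 under every alternative. The length used set the size of the gap. With the longest transcript, the log2 ratios to Elavl1 were -5.61 (Zfp36), -2.09 (Zfp36l1), -3.22 (Zfp36l2), -5.75 (Zc3h12a), -4.59 (Rc3h1), -4.06 (Rc3h2), -3.58 (Khsrp) and -3.26 (Hnrnpd). With the longest coding sequence they were -6.62, -3.09, -4.49, -7.68, -5.44, -5.28, -5.31 and -3.13 in the same order. Without length correction they were -6.65, -3.03, -3.92 and -6.81 for the first 4 genes, -3.42 for Rc3h2, -4.11 for Khsrp and -3.01 for Hnrnpd. With the longest transcript the Elavl1 model is 5743 bases, against 10363 merged exon bases, and the gap widened for 7 of the 8 factors and narrowed for Rc3h2, whose own model is 8948 bases, against 19624. For Zfp36, a pseudocount of 0.5 CPM gave -4.91, and exons within the RefSeq gene, an alternative chosen after the data had been seen, gave -4.60. The sum of the 8 factors over Elavl1, 1.12, turned to 0.673 with the longest transcript and 0.367 with the longest coding sequence, both chosen after the data had been seen. Leaving out 1 library kept every log2 ratio within 1 SD, which a mean of 3 does by construction. Depth limits Zfp36 and Zc3h12a, with at most 85 counts a library.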
